A study of Homo sapiens with 6 samples.

Results

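IRS1, IRS2, GRB10, KLHL24 and MTOR are 5 genes grouped here as insulin receptor substrates and signalling feedback. They were taken by gene symbol from the 14812 genes named on the arrays. KLHL24 is in the group although the role given for it below lies outside insulin signalling. All 5 had 1 probeset each. They were chosen by their log2 differences between the NU7441 and control arrays, so their differences between NU7441 and control are given as a description, with standard errors and no test.

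RNA came from C4-2, an established prostate cancer line of the LNCaP lineage that can grow in castrated hosts. Affymetrix Human Gene 2.0 ST arrays were used, 6 in all, 2 labelled as biological replicates in each of 3 groups. Control cells received the solvent DMSO. A second group received NU7441, an inhibitor of the kinase DNA-PKcs, at 1 µM for 24 h. In the third group, called knockdown here, DNA-PKcs was lowered for 96 h by transient transfection of siRNAs that target its gene, PRKDC. All groups were grown in medium with hormones. The protocol text also mentions a control siRNA pool, but the control arrays are labelled with DMSO alone, so a matched siRNA control was not identified for the depleted cells. The treatments also differed in duration, so the 2 treated groups differ in time as well as in agent. PRKDC was not among the named probesets, and its level was not analysed here.

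Insulin and IGF1 bind receptor tyrosine kinases, which phosphorylate the docking proteins IRS1 and IRS2. These recruit PI3-kinase, and the kinase AKT is activated. AKT in turn switches on the mTOR complex 1 and keeps FOXO transcription factors out of the nucleus. The pathway restrains itself: mTOR complex 1 promotes the inactivation of IRS1 and stabilises GRB10, an adaptor that dampens the receptors, while nuclear FOXO raises transcription of INSR and IRS2. KLHL24 is a Kelch-like adaptor of the CUL3 ubiquitin ligase, best known for directing turnover of keratin 14 in skin.

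The promoters of the related substrates IRS1 and IRS2, whose NU7441 values differed from control in opposite directions, are shown with that of KLHL24. Each is the 250 bases before the annotated transcription start, from RefSeq on GRCh38.p14, and is written 5′ to 3′ on the gene's strand. Capitals mark matches to AAACAA, the core letters bound by FOXO factors, or to CAAAACA, the letters of an insulin response sequence, on either strand. Beside IRS2, KLHL24 was the only one of the 5 with CAAAACA. GRB10 and MTOR, which were also higher with NU7441, had no CAAAACA and are not shown, so the display does not relate motif to direction. The IRS2 sequence is at chr13:109786584-109786833 on the minus strand, the KLHL24 sequence at chr3:183635373-183635622 on the plus strand, and the IRS1 sequence at chr2:226799821-226800070 on the minus strand.
IRS2: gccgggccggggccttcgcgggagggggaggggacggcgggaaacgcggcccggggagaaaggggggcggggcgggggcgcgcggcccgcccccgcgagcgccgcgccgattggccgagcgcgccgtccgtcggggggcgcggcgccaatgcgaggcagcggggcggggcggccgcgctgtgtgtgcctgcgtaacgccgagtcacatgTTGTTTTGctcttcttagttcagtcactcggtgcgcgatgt
KLHL24: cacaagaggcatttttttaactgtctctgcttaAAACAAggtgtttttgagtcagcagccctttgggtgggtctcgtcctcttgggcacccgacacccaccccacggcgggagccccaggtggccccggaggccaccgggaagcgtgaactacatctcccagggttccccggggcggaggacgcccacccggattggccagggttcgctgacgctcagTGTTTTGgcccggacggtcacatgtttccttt
IRS1: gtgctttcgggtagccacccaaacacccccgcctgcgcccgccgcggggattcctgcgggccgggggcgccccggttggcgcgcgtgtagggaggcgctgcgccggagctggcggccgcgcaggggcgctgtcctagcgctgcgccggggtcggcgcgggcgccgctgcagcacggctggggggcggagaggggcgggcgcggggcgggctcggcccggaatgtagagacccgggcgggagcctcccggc

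CAAAACA stood in the windows of IRS2 and KLHL24 and in none of the windows of the other 3 genes. It lay on the opposite strand in both, from 40 to 34 bases before the start in IRS2 and from 32 to 26 bases before it in KLHL24. In IRS2 a match to AAACAA overlapped it, from 41 to 36 bases before the start, and the capitals there hold both. KLHL24 had a separate AAACAA from 217 to 212 bases before its start. Of 35116 RefSeq windows of 300 bases, which run 250 bases before to 50 bases after a start, 4.92% held CAAAACA, 17.9% held AAACAA and 3.42% held GTAAACA, the longer FOXO letters. None of the 5 genes had GTAAACA. In the list of FOXO factors and their targets read below, 15 genes had a window. Of these 0 held CAAAACA, 7 held AAACAA and 5 held GTAAACA. Counted by gene, 6.05%, 21.1% and 4.19% of all 27305 genes with windows held them. GRB10 had 5 annotated starts on chromosome 7, and only the one whose upstream bases are chr7:50705302-50705551 held AAACAA, with 2 matches. MTOR and IRS1 held none of the 3 motifs. The array probesets do not say which GRB10 start was in use, and these letter matches describe the windows only.

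The arrays differed at the dim end. No deposited value lay below 16, which acted as a floor, and the median of 44629 probesets was 31.5 and 31.6 in control, 24.6 and 26.0 in NU7441 and 28.4 and 27.6 in knockdown. At the bright end the arrays were closer, with 95th percentiles from 289 to 299. The median standard deviation of log2 values was 0.087 in control, 0.139 in knockdown and 0.215 in NU7441, and the fit pools this spread over the groups. Of 12 luminal prostate markers 7 were measured, KLK3 and KLK4 passed limma's test as higher with NU7441 while KLK2 was at −0.44 (limma adjusted p = 0.0667), and the summed intensity was 3152 to 3317 in control, 4169 to 4462 in NU7441 and 3147 to 3179 in knockdown. The 5 measured neuroendocrine markers summed to 163 to 180 in control, 110 to 124 in NU7441 and 125 to 156 in knockdown, and the 3 basal markers to 75.3 to 88.4, 70.9 to 110.5 and 73.4 to 78.7. The neuroendocrine markers CHGB and NCAM1, the stromal LUM and the endothelial KDR passed as lower with NU7441. The part of these shifts in the results was not tested.

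IRS1, the main docking protein of the insulin receptor in many tissues, was at the floor on both NU7441 arrays. Its intensity was 34.0 and 40.6 in control, within 0.01 of the floor of 16 on both arrays in NU7441, and 40.6 and 32.5 in knockdown. Knockdown and control overlapped, and both NU7441 arrays lay below them. The NU7441 log2 difference from control was −1.21 ± 0.22 (SE, n = 2 per group), or 2.32-fold lower. The floor limits this size and the spread behind its standard error. Of the 14812 genes 80 (0.54%) had both NU7441 arrays within 0.01 of the floor, and 78 of them were dimmer than IRS1 in control. IRS1 was chosen by its NU7441 difference, so nothing is read from this share. Values near the floor were also more common on these arrays. Of 44629 probesets, 3797 and 1471 lay within 0.01 of it in NU7441, 973 and 1206 in knockdown and 452 and 444 in control. Over all genes, 830 had a lower NU7441 difference than IRS1 (5.61% at or below it). The probeset is dim, however, and lay among genes of 28.3 to 43.2 in mean control intensity, whose median NU7441 difference was −0.40 against −0.23 over all genes.

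IRS2, the second docking protein and a gene that FOXO factors induce, was higher with NU7441. Its intensity was 26.0 and 30.7 in control, 68.8 and 48.3 in NU7441 and 23.1 and 34.5 in knockdown. The NU7441 values lay above all other arrays, while the knockdown values lay on either side of control. The NU7441 log2 difference was 1.03 ± 0.29 (SE, n = 2 per group), or 2.04-fold. The control values lay below the probeset median of their arrays. The 2 substrates thus stood on opposite sides of control under the inhibitor, IRS1 lower and IRS2 higher.

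GRB10, the adaptor that binds the insulin and IGF1 receptors and limits their signalling, had the highest NU7441 difference of the 5. Its intensity was 159 and 116 in control, 482 and 415 in NU7441 and 169 and 209 in knockdown. The 3 groups did not overlap, with control lowest and NU7441 highest. NU7441 was 3.30-fold above control, a log2 difference of 1.72 ± 0.20 (SE, n = 2 per group), and 8 of the 14812 genes had a higher one (0.0608% at or above it). The control arrays differed by more for GRB10 than for any other of the 5, with a log2 SD of 0.32.

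KLHL24 was 52.2 and 51.5 in control, 115 and 119 in NU7441 and 61.5 and 78.8 in knockdown. Again the groups were ordered control, knockdown, NU7441 without overlap. Replicates were tight in control and NU7441, with log2 SDs of 0.014 and 0.027, and wider in knockdown, at 0.25. NU7441 was 2.25-fold above control (log2 difference 1.17 ± 0.22, SE, n = 2 per group), and 99 genes had a higher difference.

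MTOR, the kinase at the centre of both mTOR complexes, was 193 and 177 in control, 309 and 265 in NU7441 and 224 and 244 in knockdown. It had the same order of groups without overlap and the smallest NU7441 difference of the 5. The NU7441 log2 difference was 0.63 ± 0.16 (SE, n = 2 per group), or 1.55-fold, and 1371 genes had a higher one. MTOR belongs to the same kinase family as DNA-PKcs.

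With NU7441, 4 of the 5 genes were past limma's threshold on the higher side and 1 on the lower, against 10.8% and 22.4% of all genes (33.2% in either direction). Since this comparison chose the genes, nothing is read from that. Both NU7441 arrays lay above both controls for 22.7% of all genes and below them for 47.3%.

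**Figure D1:**
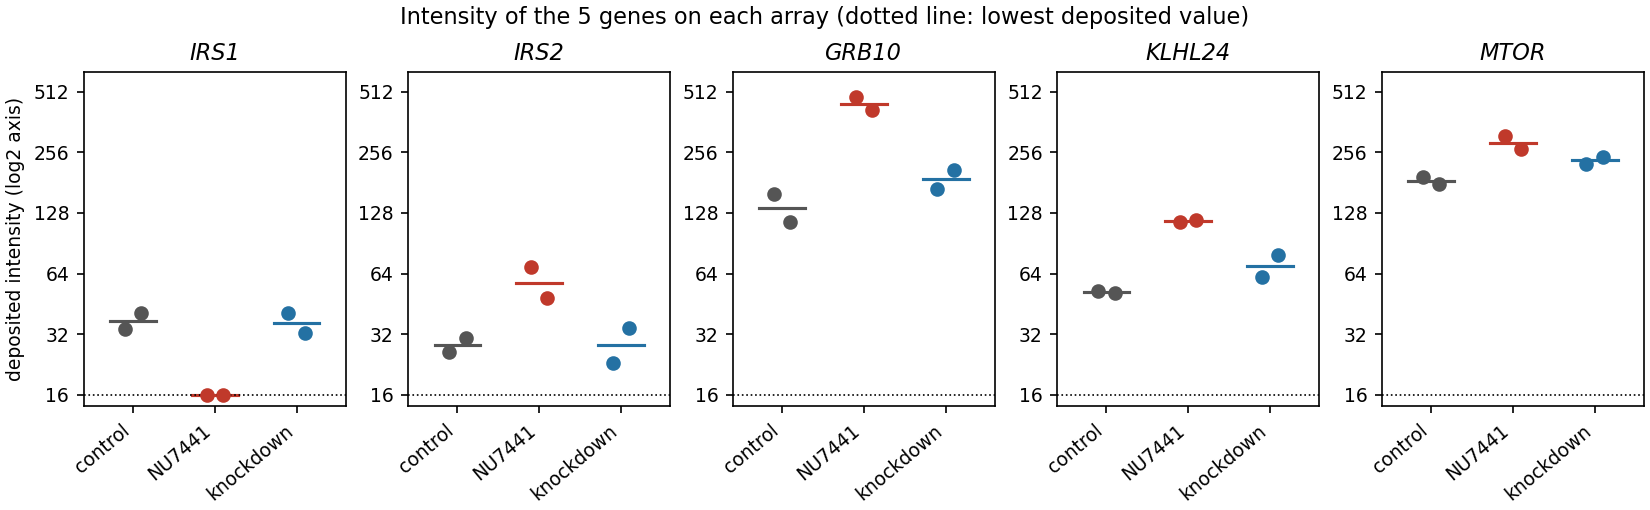
Deposited intensity (log2 axis) of each of the 5 genes on every array, grouped as control, NU7441 and knockdown, with a bar at each group's geometric mean and a dotted line at the lowest deposited value, 16. Both IRS1 points of NU7441 sit on the dotted line, and GRB10, KLHL24 and MTOR step up from control through knockdown to NU7441.

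Knockdown against control asked whether loss of the protein moved the same genes. It did not choose the 5, but it shares the control arrays with the comparison that did. By limma with p-values adjusted over all genes, 0 of the 5 passed, while 0.77% of all genes passed in either direction (0.284% higher and 0.486% lower). At an unadjusted limma p under 0.05, 1 of the 5, GRB10, was higher, against 989 higher and 1916 lower of all 14812 genes. Both knockdown arrays lay above both control arrays for 3 of the 5 genes, GRB10, KLHL24 and MTOR, and below them for 0. Over all genes these shares were 23.4% and 38.2%.

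GRB10 was 1.39-fold higher after knockdown, with a log2 difference of 0.47 ± 0.20 (SE, n = 2 per group; limma adjusted p = 0.23), and 5.54% of all genes had a difference at least as high. It passed when the NU7441 arrays were left out of the fit (limma adjusted p = 0.0478). In that fit 2843 of the 14812 genes passed, against 114 in the fit of all 6 arrays, so this is not particular to GRB10. The limma adjusted p ranged from 0.0404 to 0.831 over the alternatives, and the difference was 0.70 without control replicate 1 and 0.24 without control replicate 2. KLHL24 was at 0.42 ± 0.22 (limma adjusted p = 0.325), with 0.60 without knockdown replicate 1 and 0.25 without knockdown replicate 2, and MTOR at 0.34 ± 0.16 (limma adjusted p = 0.274).

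For the 2 substrates the knockdown values scattered around control. IRS2 was at 0.00 ± 0.29 (limma adjusted p = 1), with a 95% interval from −0.65 to 0.65. IRS1 was at −0.03 ± 0.22 (limma adjusted p = 0.956), with an interval from −0.52 to 0.46. The pooled spread includes the IRS1 values of NU7441, held at the floor with a log2 SD of 3.17e-05. In control and knockdown the IRS1 log2 SD was 0.18 and 0.23, so the IRS1 interval may be too narrow. Neither interval shows that the gene was unchanged.

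Side by side, the knockdown and NU7441 differences were 0.47 and 1.72 for GRB10, 0.42 and 1.17 for KLHL24, and 0.34 and 0.63 for MTOR. Control below knockdown below NU7441 without overlap was seen for 3 of the 5 genes and for 7.75% of all genes. Among the 3356 genes with both NU7441 arrays above both control arrays, as 4 of the 5 had by choice, it was 34.2%. Knockdown minus NU7441, given without a test because the NU7441 arrays chose the genes, was 1.18 ± 0.22 for IRS1, −1.03 ± 0.29 for IRS2, −1.25 ± 0.20 for GRB10, −0.75 ± 0.22 for KLHL24 and −0.29 ± 0.16 for MTOR. In it 1 gene, IRS1, had both knockdown arrays above both NU7441 arrays and the other 4 had them below, and over all genes these shares were 32.9% and 19.6%. Since the NU7441 arrays chose the genes, nothing is read from these counts. By limma 8.67% of all genes passed in this comparison, 5.83% as higher and 2.84% as lower after knockdown.

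Scaling changed the sizes of the 5 NU7441 differences but the sign of none of them. Of the genes that passed with NU7441, 67.4% were lower as deposited, 49% after quantile normalization and 32.1% after centring each array on its median. Quantile normalization moved the median difference of all genes from −0.23 to 0.01, and median centring moved it to 0.08. IRS1 was then at −1.03 and −0.90, and KLHL24 at 1.35 and 1.49. If the floor is an offset of 16 added to every value, it can be taken off, with a small constant added back before log2. This puts IRS1 at −4.46 and IRS2 at 1.69. The IRS1 size depends on that constant, since its NU7441 values lie at the floor.

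**Figure D2:**
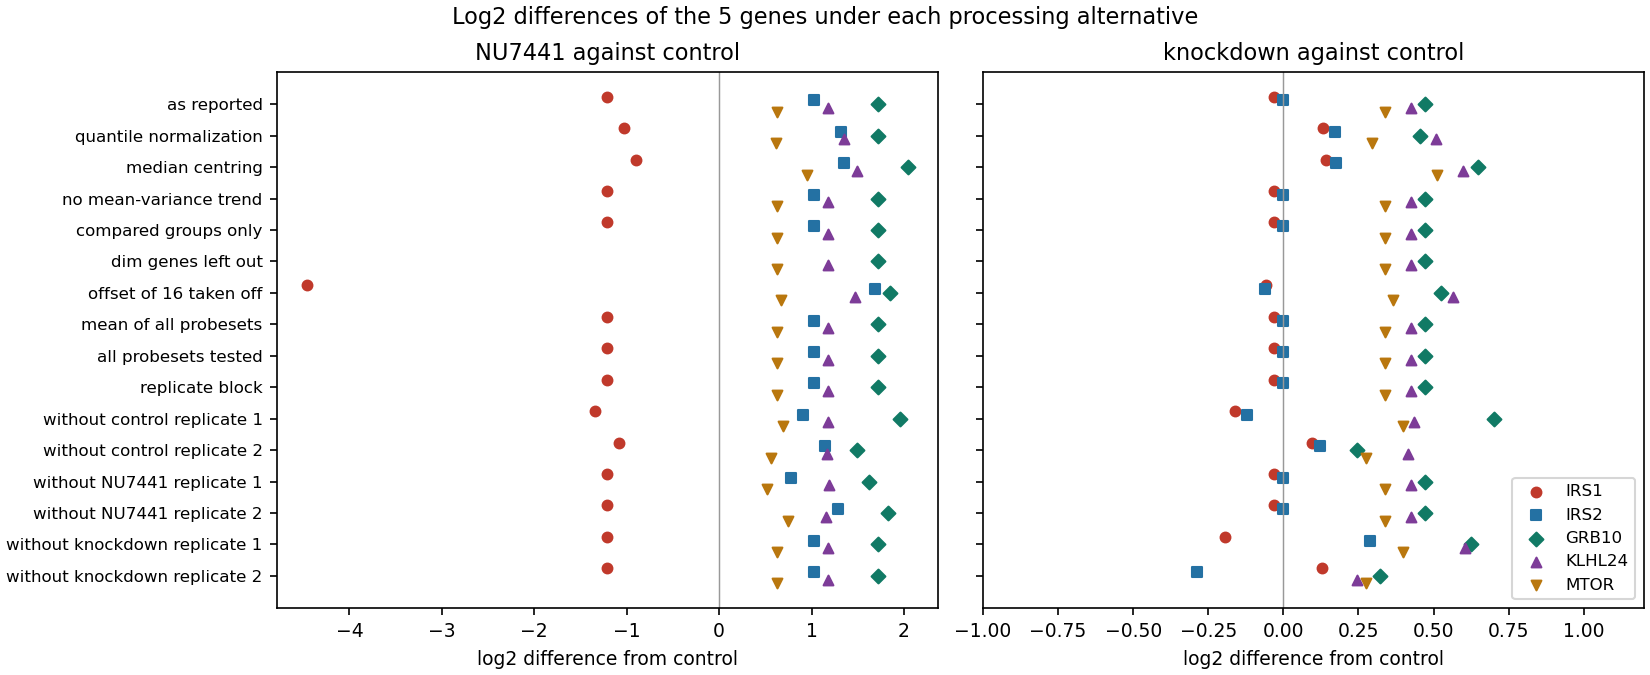
Log2 difference from control (x axis, a different range in each panel) of the 5 genes under each processing alternative (y axis), NU7441 on the left and knockdown on the right. In the left panel IRS1 stays below 0 and the other 4 above 0 in every line where they have a value, while in the right panel IRS1 and IRS2 fall on both sides of 0.

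The rest of the pathway was read from 7 lists of genes, with the 5 left out. Over the lists together, 119 genes were measured of 171 listed. With NU7441, 28 of them rose and 20 fell by limma's test, against 10.8% and 22.4% of all genes. After knockdown 0 passed limma's test, against 0.77% of all genes. At an unadjusted limma p under 0.05, 13 were higher and 8 lower, against 989 higher and 1916 lower of all 14812 genes. The NU7441 counts fell without control replicate 1 and without control replicate 2, in fits that leave 1 array in the control group. Over all genes the lowest count with 1 array left out, given at the end, was also far below that of the full fit. Calls lost without a control replicate, here and in the lists below, therefore do not by themselves single out these genes.

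Receptors and their ligands went in different directions under NU7441. Of 11 measured genes 3 rose and 6 fell, against 10.8% and 22.4% of all genes. Their median difference was −0.63 against −0.23 over all genes. IGF2R, which takes IGF2 to lysosomes, rose from 241 and 210 to 550 and 505 (1.23 ± 0.14, n = 2 per group; limma adjusted p = 9.07e-04). IGF1R, the IGF1 receptor, rose from 59.6 and 62.7 to 133 and 102 (0.93 ± 0.22; limma adjusted p = 0.0132). INSR, the insulin receptor, rose from 56.0 and 51.7 to 95.1 and 85.2 (0.74 ± 0.23; limma adjusted p = 0.0331).

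The INSR call was lost with the compared groups alone, in the fit with a replicate block, and without either control or either knockdown replicate (limma adjusted p from 0.0522 to 0.248 in these). INSRR, an orphan receptor related to INSR, fell from 87.2 and 105 to 33.0 and 26.8 (−1.68 ± 0.24; limma adjusted p = 0.00188). The ligand IGF1 fell from 66.4 and 68.9 to 23.2 and 27.6 (−1.42 ± 0.23; limma adjusted p = 0.00313). IGFBP3, a binding protein that sequesters IGFs, fell by 1.05 ± 0.22 on the log2 scale (limma adjusted p = 0.00835). Every call in this list except IGF2R and INSRR was lost without control replicate 1, and every one except IGF2R without control replicate 2.

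Few of the other adaptors passed. Of 21 measured genes of receptor adaptors and feedback 1 rose and 1 fell with NU7441, against 10.8% and 22.4% of all genes. The list's median was 0.09 against −0.23 over all genes. GIGYF2, a protein known for binding GRB10, rose from 212 and 204 to 371 and 282 (0.64 ± 0.17; limma adjusted p = 0.0218). TRIB3, a pseudokinase that binds AKT, fell from 236 and 252 to 153 and 174 (−0.58 ± 0.16; limma adjusted p = 0.0235). Its call was lost with median centring (−0.26, limma adjusted p = 0.242). TRIB2 was at 0.85 ± 0.22 after knockdown (limma adjusted p = 0.0924). GRB7 and GRB14, the adaptors most closely related to GRB10, were at −0.39 ± 0.36 and −0.22 ± 0.31 with NU7441, with limma adjusted p of 0.413 and 0.609. IRS4, a further substrate, was near the floor on all 6 arrays, at 16.8 to 21.2. Both calls of this list were lost without control replicate 1 and without control replicate 2.

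With NU7441 10.8% of all genes rose and 22.4% fell. Of 9 measured PI3K and AKT genes 4 rose and 0 fell, with a median of 0.52. They were PDPK1, which phosphorylates AKT (0.89 ± 0.18; limma adjusted p = 0.00639), AKT2 (0.88 ± 0.17; limma adjusted p = 0.00606), PIK3IP1, an inhibitor of PI3-kinase (0.79 ± 0.24; limma adjusted p = 0.0326), and GSK3B, a kinase that AKT inhibits (0.51 ± 0.11; limma adjusted p = 0.00831). AKT1 was at 0.00 ± 0.23 (limma adjusted p = 0.999). Without control replicate 1 or 2 none of the 9 passed. PIK3IP1 also lost its call with the compared groups alone and without NU7441 replicate 1 or either knockdown replicate, and the PDPK1 difference was 0.35 as the mean of its probesets (limma adjusted p = 0.176).

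Of 20 mTOR genes beside MTOR itself 7 rose and 5 fell with NU7441, against 10.8% and 22.4% of all genes. SESN1, a leucine sensor that restrains mTOR complex 1, rose from 111 and 103 to 260 and 252 (1.26 ± 0.17; limma adjusted p = 0.00148). AKT1S1, the PRAS40 inhibitor of the complex, rose from 82.6 and 95.5 to 203 and 202 (1.19 ± 0.19; limma adjusted p = 0.00274). TSC1, part of the complex that switches off RHEB, rose by 1.06 ± 0.19 (limma adjusted p = 0.00464).

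On the lower side, ULK1, an autophagy kinase that mTOR inhibits, fell from 104 and 92.5 to 37.9 and 44.1 (−1.26 ± 0.23; limma adjusted p = 0.00481). SGK1, a kinase activated by mTOR complex 2, fell by 0.98 ± 0.23 to 17.3 and 19.1, near the floor (limma adjusted p = 0.0122). PRR5L, an mTOR complex 2 partner, fell by 0.78 ± 0.24 (limma adjusted p = 0.0345), a call lost with quantile normalization (−0.47, limma adjusted p = 0.175), with median centring (−0.46, limma adjusted p = 0.183) and with the offset of 16 taken off (limma adjusted p = 0.0695). After knockdown ULK1 was 47.0 and 53.2 (−0.97 ± 0.23) and AKT1S1 was 149 and 185 (0.90 ± 0.19), with limma adjusted p of 0.0774 and 0.0627. In this list 4 and 3 genes rose without control replicate 1 and 2, and 0 fell in either case.

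The list of FOXO factors and their known targets had the highest NU7441 median of the 7, at 0.69 against −0.23 over all genes. The lists were chosen with earlier results of these data known, so this rank is a description only. Of 20 measured genes 11 rose and 1 fell, against 10.8% and 22.4% of all genes. The higher count was 12 after quantile normalization and after median centring. The list shares SESN1 and SESN3 with the mTOR list, PIK3IP1 with the PI3K list, and INSR and IGFBP1 with the receptor list, so these counts overlap. SESN1 led it, followed by MXI1, an antagonist of MYC (1.14 ± 0.18; limma adjusted p = 0.0028), and CAT, the catalase (1.13 ± 0.14; limma adjusted p = 0.00121). MXI1 lost its call as the mean of its probesets (0.43, limma adjusted p = 0.2). IGFBP1, a liver target of FOXO1, was the gene that fell (−0.86 ± 0.24; limma adjusted p = 0.0218), and it did not pass after quantile normalization (limma adjusted p = 0.11). The count that rose was 5 without control replicate 1 and 4 without control replicate 2.

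The FOXO genes themselves did not pass. FOXO3 was 56.6 and 53.4 in control and 100 and 74.8 with NU7441 (0.66 ± 0.24; limma adjusted p = 0.0584). It passed under both other scalings, without dim genes, without the mean-variance trend and without NU7441 replicate 2 (limma adjusted p from 0.00303 to 0.0442 in these). FOXO1 was 98.2 and 96.1 in control, 29.3 and 90.4 with NU7441 and 58.4 and 49.7 after knockdown, so the NU7441 arrays differed widely (−0.92 ± 0.43; limma adjusted p = 0.129). FOXO1 was at −1.73 without NU7441 replicate 2 (limma adjusted p = 1.07e-05) and at −0.10 without NU7441 replicate 1 (limma adjusted p = 0.714).

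**Figure D3:**
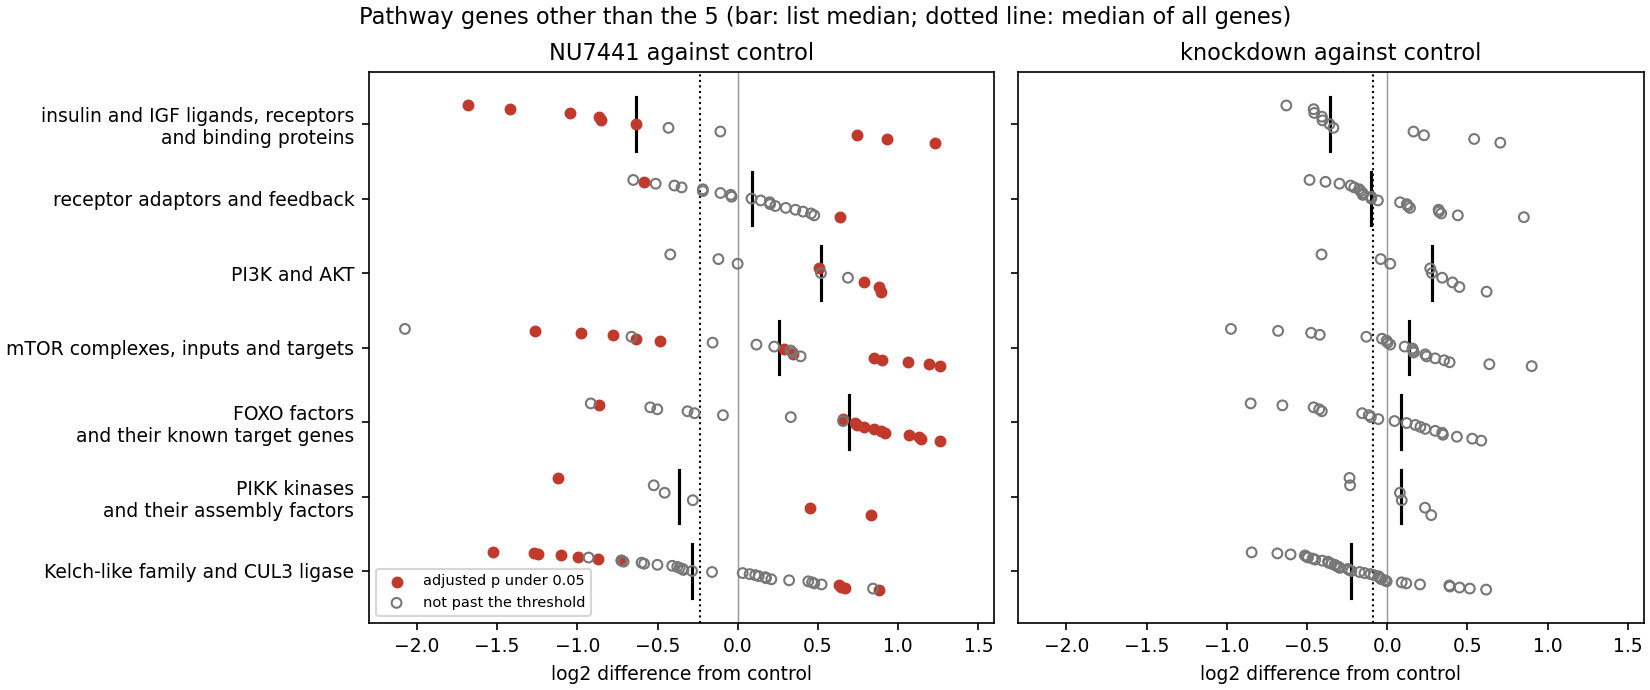
Log2 difference from control (x axis) of every measured gene of the 7 lists, the 5 genes left out, for NU7441 and for knockdown, with filled points past limma's adjusted p of 0.05, a bar at each list's median and a dotted line at the median of all genes. The FOXO list's NU7441 median of 0.69 lies farthest to the right, and no point is filled in the knockdown panel.

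MTOR's own kinase family was measured in part. Of 6 measured PIKK kinases and assembly factors 2 rose and 1 fell with NU7441, against 10.8% and 22.4% of all genes. TRRAP, a family member without kinase activity, rose from 196 and 163 to 328 and 307 (0.83 ± 0.18; limma adjusted p = 0.00937). RUVBL2, an ATPase that helps assemble the family, rose by 0.45 ± 0.13 (limma adjusted p = 0.0293), while TTI1, a scaffold that stabilises these kinases, fell by 1.12 ± 0.27 (limma adjusted p = 0.0141). TTI1 was at −0.73 without NU7441 replicate 1. All 3 calls were lost without control replicate 2, and those of RUVBL2 and TTI1 also without control replicate 1. RUVBL2 also lost its call with the compared groups alone, without the mean-variance trend and without either knockdown replicate. ATR, the replication stress kinase, was at −0.28 ± 0.31 (limma adjusted p = 0.501).

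KLHL24 was set beside its own family. Of 37 measured Kelch-like genes and CUL3 ligase subunits, without KLHL24, 4 rose and 7 fell with NU7441, against 10.8% and 22.4% of all genes. The list's median was −0.28, near the −0.23 of all genes. Its highest member was KLHL29 at 0.88 ± 0.28 (limma adjusted p = 0.0367). KLHL24 at 1.17 was above every other measured member, but it was chosen by this difference, so nothing is read from its rank. KLHL9 and KLHL20 rose by 0.67 ± 0.20 and 0.64 ± 0.18 (limma adjusted p = 0.0285 and 0.0237). KLHL42 fell from 167 and 174 to 39.1 and 89.4 (−1.53 ± 0.33; limma adjusted p = 0.00964), with −0.93 without NU7441 replicate 1 and −2.12 without NU7441 replicate 2. KLHL40 and KLHL10 fell by 1.27 ± 0.17 and 1.24 ± 0.27 to values at or near the floor (limma adjusted p = 0.00146 and 0.00876). CUL3, the ligase scaffold that Kelch-like adaptors bind, fell from 298 and 322 to 159 and 179 (−0.87 ± 0.15; limma adjusted p = 0.00401) and is named after its value was seen. Its call was lost without control replicate 2 (limma adjusted p = 0.0662). KRT14, the keratin that KLHL24 is known to target, was 33.3 and 28.5 in control, close to the probeset median. In this list 0 genes rose without either control replicate, and 2 and 1 fell without control replicate 1 and 2. KLHL29 and KLHL9 also lost their calls with the compared groups alone and without either knockdown replicate, and KLHL29 was at 0.55 without NU7441 replicate 1 (limma adjusted p = 0.0797).

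The genes with the most similar values over the 6 arrays were found by the root mean square difference of log2 values, each taken from the control mean, among protein-coding genes brighter than the median. For MTOR the nearest were SRR, SON and RNF166, at 0.025, 0.026 and 0.035. For KLHL24 they were HBP1, TPP1 and ZNF280D, at 0.054, 0.077 and 0.077. HBP1 encodes a transcriptional repressor and TPP1 a lysosomal peptidase. For IRS1 they were NUP37, LZIC and KIF7, at 0.076, 0.106 and 0.106, but the IRS1 values of NU7441 are truncated at the floor while NUP37 was 97.5 and 90.0 there. With the offset of 16 taken off, NUP37 was at −1.42 and IRS1 at −4.46 with NU7441, so the likeness was lost there. That IRS1 size depends on the small constant added back before log2.

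For IRS2 the nearest were PTOV1, PTCH1 and THG1L, at 0.098, 0.134 and 0.135, and for GRB10 they were RDH11, TP53INP1 and EVC, at 0.156, 0.159 and 0.185. GRB10 thus had the least close neighbours of the 5. Among the 5 themselves, IRS2 and KLHL24 were the most alike, at 0.319, and IRS1 and GRB10 the least, at 1.74. With 2 arrays per group these distances are a description of 6 arrays.

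**Figure D4:**
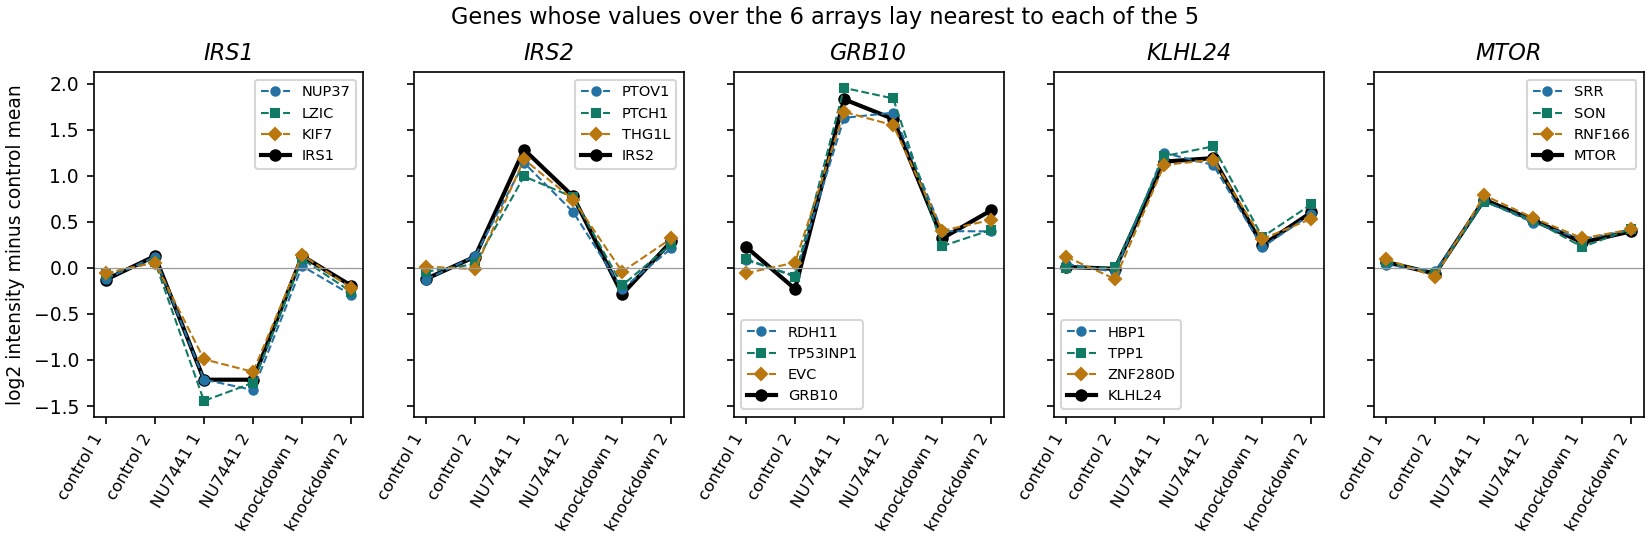
Log2 intensity minus the control mean (y axis) on the 6 arrays (x axis) for each of the 5 genes (black) and the 3 genes nearest to it (coloured, dashed). NUP37, nearest to IRS1, lies below control on both NU7441 arrays, where IRS1 is truncated at the floor, and the GRB10 panel has the highest NU7441 points.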

How the data were processed

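The authors deposited a linear intensity for every probeset on each array. How these were summarised and normalised, and on which genome build, is not given in the sources used here. RNA was amplified to cDNA, labelled with biotin and hybridised, per the labels' protocols. Columns carry the sample identifiers, and log2 of the values was taken without rescaling. Of 44629 probesets 15835 had 1 gene symbol, 0 had several and 28794 were unnamed and left out of the gene tests. The platform annotation gave the symbols, and all 15835 identifiers matched the GRCh38.p14 gene table. The brightest probeset stood for each of 651 genes with more than 1.

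Groups were compared in 1 linear model of all 6 arrays with limma 3.58.1 under R 4.3.3 (3 residual degrees of freedom, variances moderated along an intensity trend). Tests were two-sided, p-values were adjusted over 14812 genes by Benjamini-Hochberg, and the threshold was 0.05. Values after ± are moderated standard errors of log2 differences. Precision is limited by having 2 arrays a group (median standard error 0.22), and p-values measure only the spread between these replicates. The procedure was tested on simulated data with the same spread for every gene and group and no floor. That simulation does not show how the test behaves near the floor or with unequal spreads.

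The 5 genes and the lists were chosen with earlier results of these data known. Besides the 5, the text names INSR, IGF1R, FOXO1, FOXO3 and TSC1, in each list up to 3 highest and 3 lowest genes past the threshold against control (otherwise the gene with the largest difference), and the 3 genes nearest to each of the 5. GSK3B, AKT1, GRB7, GRB14, IRS4, ATR, CUL3, KRT14, EIF4EBP1, BCL6 and the named cell type markers were chosen after their values were seen. RPTOR and RICTOR were not analysed here. Motifs were matched in RefSeq promoter windows with python 3.11.15. A planned protein comparison was not made, since no protein sequences were used here. Alternatives were other scalings, fits, filters and probeset rules and leaving out each array.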

Additional observations from a re-analysis of the deposited data

Results flagged for a closer look

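Among 119 pathway genes, 8 (6.72%) had both NU7441 arrays on one side of both control arrays and both knockdown arrays on the other side, against 711 of all 14812 genes (4.8%). Such genes cannot overlap between knockdown and NU7441, so limma's test of that difference is not independent of how they were picked. It was passed by 4 of the 8, and by 41.1% of the 711. IGF1, the ligand, was at −1.42 with NU7441 and 0.71 after knockdown, and knockdown minus NU7441 was 2.12 ± 0.23 (limma adjusted p = 0.00205). INSR was at 0.74 and −0.46, a difference of −1.20 ± 0.23 (limma adjusted p = 0.0155). EIF4EBP1, a translation repressor that mTOR complex 1 inactivates, was at −0.48 and 0.36, a difference of 0.84 ± 0.13 (limma adjusted p = 0.00857). BCL6, a repressor that FOXO factors induce, was at 0.73 and −0.11, a difference of −0.84 ± 0.15 (limma adjusted p = 0.0134).

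All 4 of these calls were lost without knockdown replicate 1 and without knockdown replicate 2, where that group is left with 1 array. This loss is not particular to these 4. RDH11 and TP53INP1, with limma adjusted p of 0.00105 and 0.000609 in the full fit, lost their calls there too. Without knockdown replicate 1 the difference was 2.23 for IGF1, −1.13 for INSR, 0.76 for EIF4EBP1 and −0.79 for BCL6. Without knockdown replicate 2 these were 2.01, −1.27, 0.92 and −0.90. INSR and BCL6 were also lost without control replicate 1 (limma adjusted p of 0.0729 and 0.0511) and without control replicate 2 (0.0717 and 0.0509), and INSR with the compared groups only (0.0668). Against control, the knockdown difference did not pass for any of the 4. The NU7441 difference passed for all 4 but for none of them without control replicate 1 or without control replicate 2, and that of EIF4EBP1 did not with median centring (−0.17, limma adjusted p = 0.371).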

How the results depend on the processing

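With NU7441, none of the 5 genes changed sign under any alternative that gave a value; IRS1 and IRS2 have none with dim genes left out. Quantile normalization put IRS1 at −1.03 and KLHL24 at 1.35. Median centring put IRS1 at −0.90, GRB10 at 2.04, KLHL24 at 1.49 and MTOR at 0.95. Taking off the offset of 16, with 1 added back before log2, put IRS1 at −4.46, IRS2 at 1.69 and KLHL24 at 1.47. All IRS1 sizes against NU7441 with the offset taken off depend on that added 1. Of all genes 4917 passed, against 10300 of all probesets and 868 to 7845 when 1 array was left out. Of the pathway genes 28 rose and 20 fell, and the lower count was 13 with median centring and 12 without dim genes. Leaving out 1 array gave 7 to 41 higher and 1 to 36 lower. After knockdown 114 of all genes passed, against 199 with quantile normalization, 423 with median centring, 4 without the trend, 2843 with the compared groups only, 7 with the offset taken off, 320 of all probesets and 1 to 2884 with 1 array left out. Of those called, 63.2% were lower as deposited and 18.4% with median centring. No pathway gene passed after knockdown, but 1 rose with quantile normalization and 5 with median centring, 13 rose and 10 fell with the compared groups only, and 0 to 14 rose and 0 to 10 fell with 1 array left out. The knockdown difference of IRS1 turned to 0.13 with quantile normalization and 0.14 with median centring and ran from −0.19 to 0.13 with 1 array left out. That of IRS2, 0.00 as reported, was −0.060 with the offset taken off and ran from −0.29 to 0.29. GRB10, at 0.47, passed with the compared groups only and ran from 0.24 to 0.70. Knockdown against NU7441 gave 1284 genes, 820 without the trend, 472 with the compared groups only, 1957 of all probesets and 0 to 5101 with 1 array left out. The 7 higher and 10 lower pathway genes became 2 and 4 with the compared groups only, and 0 to 26 and 0 to 30 with 1 array left out. Knockdown minus NU7441 was 4.40 for IRS1, −1.75 for IRS2 and −0.90 for KLHL24 with the offset taken off, −0.44 for MTOR with median centring, and from −0.93 to −0.57 for KLHL24 with 1 array left out. A group left with 1 array was assumed to vary like the others. Beyond the named constructions, the cause of these changes was not tested. With the replicate number as a block, 37 genes passed after knockdown and 6 pathway genes were lower than with NU7441, against 10. Deviations of same-numbered arrays correlated at −0.005, −0.013 and −0.068, so the arrays share only a number. Dim signal near the floor limits IRS1 and IRS2 most.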
